A study of Capra hircus with 9 samples.

Results

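PDGFA, PDGFB, PDGFC, PDGFD, PDGFRA, PDGFRB, KITLG, KIT and CSF1 encode the platelet-derived growth factors with their receptors, the ligand and receptor of the KIT system, and the ligand of the CSF1 receptor. The 9 genes were taken by symbol from the deposited table of goat mammary gland expression, where each has 1 row, and they are 9 of its 23499 genes. The table holds 9 libraries, each made from a different healthy goat of the Laoshan breed, which is kept for milk in China. There are 3 libraries of late lactation (LL, 240 days postpartum), 3 of the dry period (DP, 300 days postpartum) and 3 of late gestation (LG, 140 days after mating). All goats were kept on 1 farm, were between 3 years 8 months and 4 years 1 month old and in the third parity, and their mammary tissue was taken at slaughter without sorting of cells, so each library mixes the RNA of the cell types present. No goat was sampled at more than 1 stage, and the 3 comparisons between the stages share libraries.

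PDGF ligands are dimeric growth factors that act mainly on mesenchymal cells such as fibroblasts, pericytes and smooth muscle cells. PDGF-A and PDGF-B are cut to their active form inside the cell, whereas PDGF-C and PDGF-D are secreted in a latent form and are cut outside it. PDGFRA and PDGFRB are receptor tyrosine kinases of the same family as KIT and the CSF1 receptor. KIT binds KITLG, also called stem cell factor, and is known from mast cells, melanocytes, germ cells and a progenitor fraction of the luminal mammary epithelium. CSF1 keeps macrophages alive through its receptor CSF1R, which also binds IL34, and macrophages take part in both duct growth and the regression of the gland after milking stops.

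The values were taken as FPKM (fragments per kilobase of transcript, set against all fragments of the library). Their unit is not named, and the levels compared between genes, in orders, shares and ratios, rest on that reading. The summed FPKM of the milk protein genes CSN2, CSN1S1 and LALBA was 167270 to 223395 in late lactation, 43.4 to 66.0 in the dry period and 6166 to 8493 in late gestation, which follows the labelled stages. The 10 most abundant genes took 80.6% to 86.0% of the summed FPKM of an LL library and 53.6% to 58.5% of that of a DP or LG library, so that a smaller part of the sum was left to all other genes in LL. Fold changes and tests therefore rest on FPKM divided by a median-ratio scaling factor of each library (0.498 to 0.605 in LL, 1.44 to 1.53 in DP, 1.2 to 1.31 in LG), with 1 added and log2 taken. Without the division the median of all genes moved by 1.09 (log2) in DP against LL, by 0.93 in LG against LL and by -0.18 in LG against DP. limma was fitted to 14701 genes in all 9 libraries, and a gene was called when its adjusted p was under 0.05 and its log2 fold change 1 or more in either direction. All 9 genes passed the filter on low values, KITLG through its DP and LG libraries alone.

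The receptor genes, PDGFD, KIT and CSF1 stood highest in the dry period, whereas PDGFA, PDGFB and KITLG stood above late lactation in both of the other stages. In DP against LL, 4 of the 9 genes rose (PDGFRA, PDGFRB, KITLG and CSF1) and none fell, where 13.8% of all genes tested rose, 8.79% fell and 22.6% were called in either direction. KITLG alone was called in LG against LL, and it was higher in LG, where 10.7% of all genes tested rose, 6.61% fell and 17.3% were called. In LG against DP, 5 of the 9 genes fell (PDGFRA, PDGFRB, PDGFD, KIT and CSF1) and none rose, where 6.37% of all genes tested rose, 6.88% fell and 13.3% were called. By an adjusted p under 0.05 alone, 8, 5 and 5 of the 9 genes passed in the 3 comparisons, against 56.9%, 50.2% and 34.8% of all genes. The median log2 fold change of the 9 genes was 0.98, 0.11 and -1.22, and that of all genes tested was 0.00, 0.02 and 0.01. All 9 genes had a higher FPKM in every DP library than in any LL library, but so did 84% of all genes, and 3.88% were lower in every DP library. After scaling, 8 of the 9 (PDGFC being the exception) were still higher in every DP library, against 32.5% of all genes, with 33.4% lower. In late gestation 5 of the 9 genes lay above LL without overlap as deposited, where 76.1% of all genes did and 3.87% lay below. Scaled, PDGFA, PDGFB and KITLG lay above LL (31% of all genes) and PDGFRA and CSF1 below (30.2%), the direction of these last turning without scaling. The 5 genes that fell in LG against DP lay below DP in every LG library on either scale, where 34.2% of all genes did so as deposited and 22.8% after scaling. In bulk tissue a change in the number of cells of a type cannot be told apart from a change in the RNA of each cell.

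**Figure D1:**
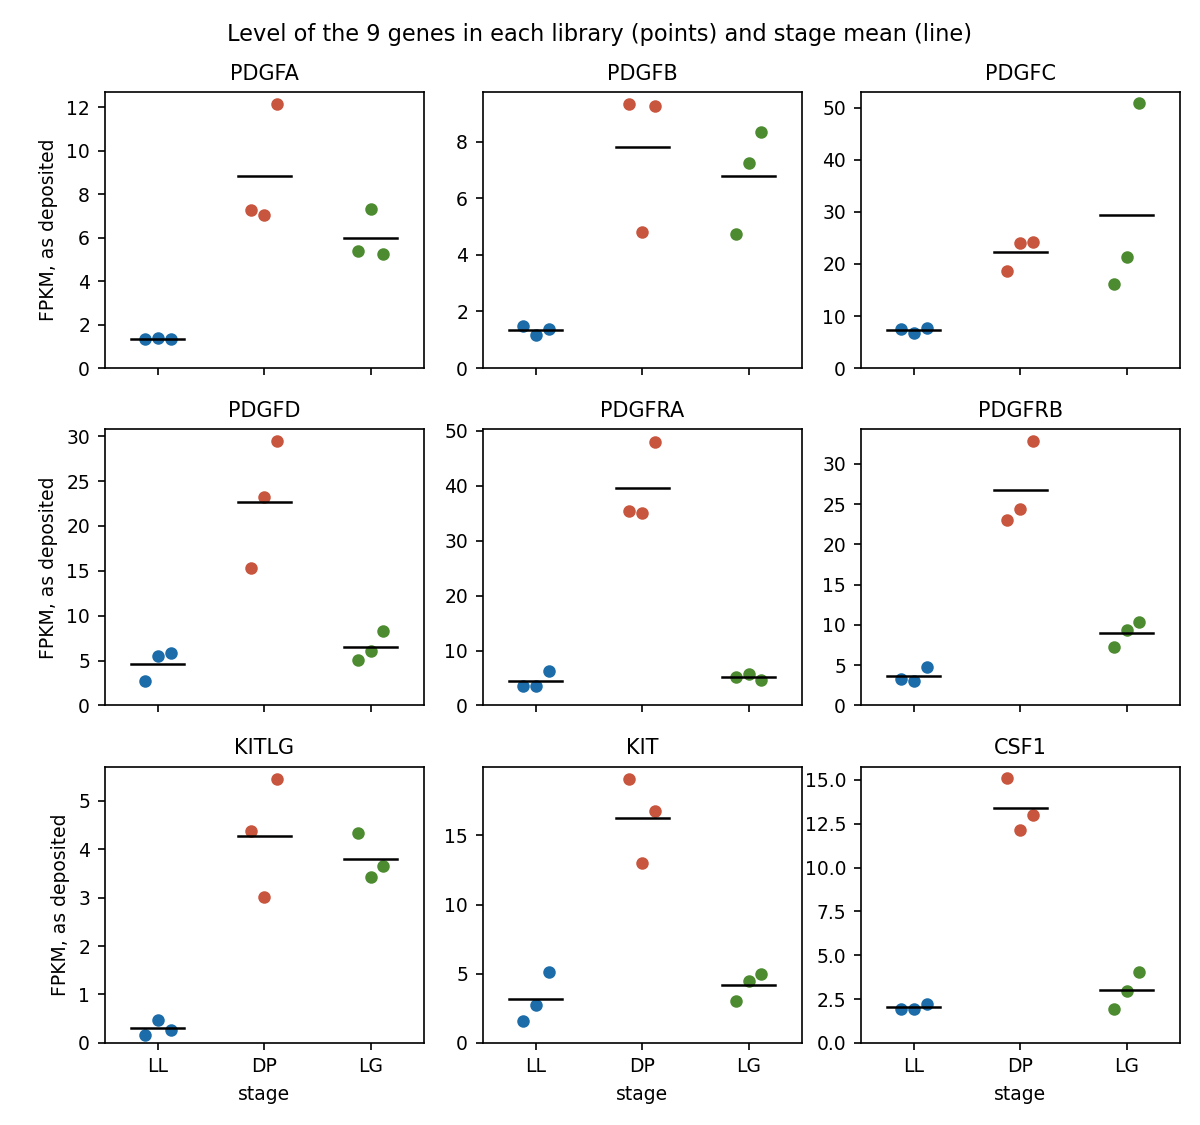
FPKM as deposited (vertical axes, linear and starting at 0, a scale for each gene) of the 9 genes in the 3 late lactation (LL), 3 dry period (DP) and 3 late gestation (LG) libraries, 1 point per library, with the stage mean as a line. PDGFRA, PDGFRB, PDGFD, KIT and CSF1 are highest in DP, with PDGFRA at 35.1 to 48.0 in DP against at most 6.27 elsewhere. PDGFA, PDGFB, PDGFC, PDGFRB and KITLG are above LL in both DP and LG. On this scale 84% of all genes tested were above LL in every DP library, and 76.1% in every LG library.

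The order of the 9 genes by level changed with the stage. In LL, PDGFC had the highest mean FPKM (7.35 ± 0.501, SD, n = 3), all of its libraries lying above those of the next gene PDGFD. PDGFD, PDGFRA, PDGFRB, KIT and CSF1 followed with means of 4.67 to 2.02, and each neighbour in that order overlapped the next. PDGFA and PDGFB overlapped each other at 1.35 and 1.34, and KITLG was lowest at 0.307 ± 0.158. In DP the order was led by PDGFRA (39.5 ± 7.39), whose libraries all lay above those of PDGFRB (26.7 ± 5.30). From PDGFRB down to KITLG (4.28 ± 1.22) each neighbour overlapped the next in DP. In LG, PDGFC was again first at 29.4 ± 18.7, above PDGFRB at 9.03 ± 1.57 without overlap. The means of the other genes in LG ran from 6.77 (PDGFB) to 2.99 (CSF1), each neighbour overlapping the next.

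The rank of a gene among all genes tested in its own library needs no scaling between libraries. PDGFRA had a median percentile of 65.9 in LL, of 93.2 in DP but of 50.7 in LG. The ranges of its percentiles in the 3 stages did not overlap, and how many of all genes tested did the same was not counted. KIT went from a median of 55.8 in LL to 79.9 in DP and 43.8 in LG, and CSF1 from 43.9 to 73.0 and 31.4. KITLG, the gene of the lowest rank in LL, had a median percentile of 11.9 there, 33.3 in DP and 37.9 in LG. PDGFC kept a high rank throughout, with medians of 80.2, 87.1 and 86.6.

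**Figure D2:**
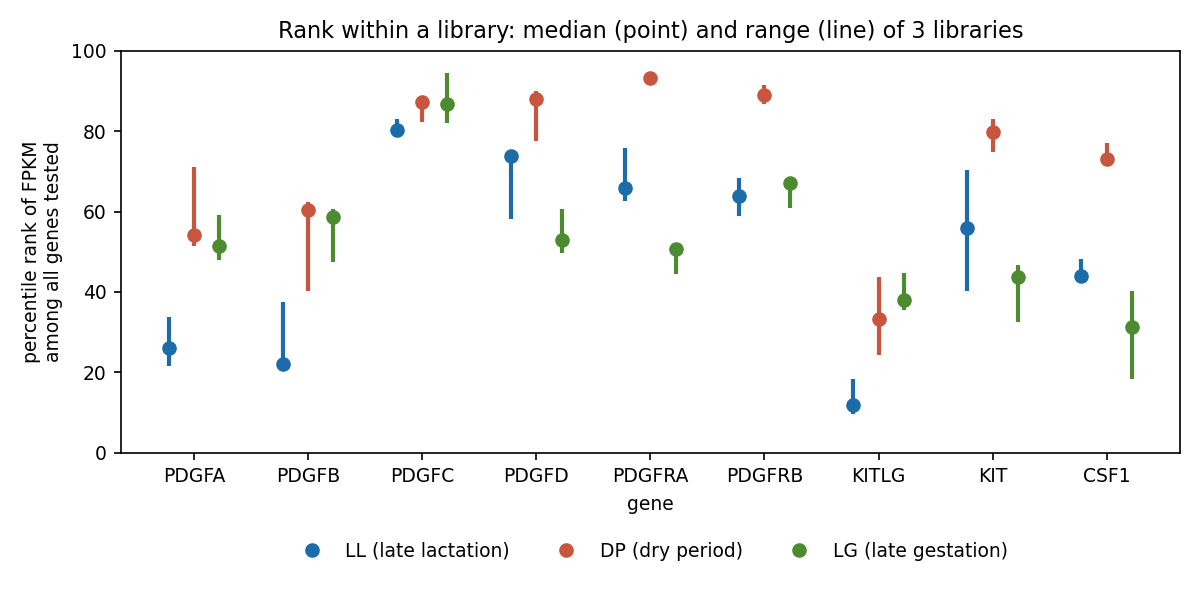
Percentile rank of the FPKM of each gene (vertical axis, 0 to 100) among the 14701 genes tested in the same library, as the median (point) and range (line) of the 3 libraries of a stage. PDGFRA, PDGFRB, PDGFD, KIT and CSF1 rank higher in every DP library than in any LL or LG library, and KITLG ranks lower in every LL library than in any other. The share of all genes tested that did so by rank was not counted. By scaled FPKM, 32.5% were higher in every DP library than in any LL library, and 22.8% lower in every LG library than in any DP library.

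The PDGF ligand genes did not move as a group. PDGFA (gene ID 102174268, chromosome 25, 42640991 to 42662362, plus strand) encodes the A chain, which binds PDGFRA. It had 1.34, 1.37 and 1.35 FPKM in the LL libraries 1 to 3, 7.27, 7.03 and 12.2 in DP, and 5.38, 7.34 and 5.25 in LG. Every LL library was below every other library, and DP and LG overlapped. The log2 fold change of PDGFA was 0.98 in DP against LL (SE 0.20, adjusted p = 0.00283), 0.73 in LG against LL (SE 0.20, adjusted p = 0.0134) and -0.25 in LG against DP (SE 0.20, adjusted p = 0.365). PDGFA was thus just under the fold change required in DP against LL, and it was called there with quantile normalization (1.06) or with a pseudocount of 0.1 (1.21).

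PDGFB (gene ID 102184232, chromosome 5, 109589604 to 109609693, minus strand) encodes the B chain, which endothelial cells release to draw pericytes to new vessels and which binds both receptors. Its FPKM was 1.47, 1.17 and 1.39 in late lactation, 9.34, 4.81 and 9.26 in the dry period and 4.73, 7.24 and 8.34 in late gestation. As for PDGFA, every LL library lay below all others and the DP and LG libraries overlapped. Its log2 fold change was 0.83 in DP against LL (SE 0.23, adjusted p = 0.0117) and 0.87 in LG against LL (SE 0.23, adjusted p = 0.0103), below the fold change required in both. In LG against DP it was 0.04, with a 95% interval of -0.47 to 0.55, and the sign turned without scaling (-0.16). The library DP2 held the lowest PDGFB of its stage, and without it the log2 fold change in DP against LL was 1.08 and was called.

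PDGFC (gene ID 102168934, chromosome 17, 28605682 to 28849747, minus strand) encodes a ligand that binds mainly PDGFRA. It had 7.59, 6.77 and 7.68 FPKM in late lactation, 18.6, 24.0 and 24.2 in the dry period and 16.2, 21.3 and 50.8 in late gestation. After scaling, the 3 stages overlapped. No comparison was called, with log2 fold changes of 0.16 in DP against LL (SE 0.32, adjusted p = 0.682), 0.61 in LG against LL (SE 0.32, adjusted p = 0.140) and 0.45 in LG against DP (SE 0.32, adjusted p = 0.304). The library LG3 held the highest value by far, and without it the last of these was 0.02 and the LG against LL value was 0.19. The data do not show that PDGFC was equal between stages, since the 95% interval in DP against LL ran from -0.56 to 0.89.

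PDGFD (gene ID 102168651, chromosome 15, 77905021 to 78186325, minus strand) encodes a ligand that binds mainly PDGFRB. Its FPKM was 2.70, 5.47 and 5.83 in late lactation, 15.3, 23.3 and 29.4 in the dry period and 5.11, 6.02 and 8.31 in late gestation. All DP libraries were above all others, while LL and LG overlapped. PDGFD fell in LG against DP (log2 fold change -1.39, SE 0.28, adjusted p = 0.00435), and its difference in DP against LL was 0.82 (SE 0.28, adjusted p = 0.0304). That adjusted p was 0.0780 without DP2, 0.0946 without DP3 and 0.109 without LL1. Against LL it was -0.57 in LG (SE 0.28, adjusted p = 0.114), with the sign turning without scaling (0.43). The span of PDGFD holds the gene DDI1 on the other strand, and the library kit does not keep strand, so that reads of both could not be told apart where they overlap. DDI1 was listed at 0.05 to 0.94 FPKM.

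**Figure D3:**
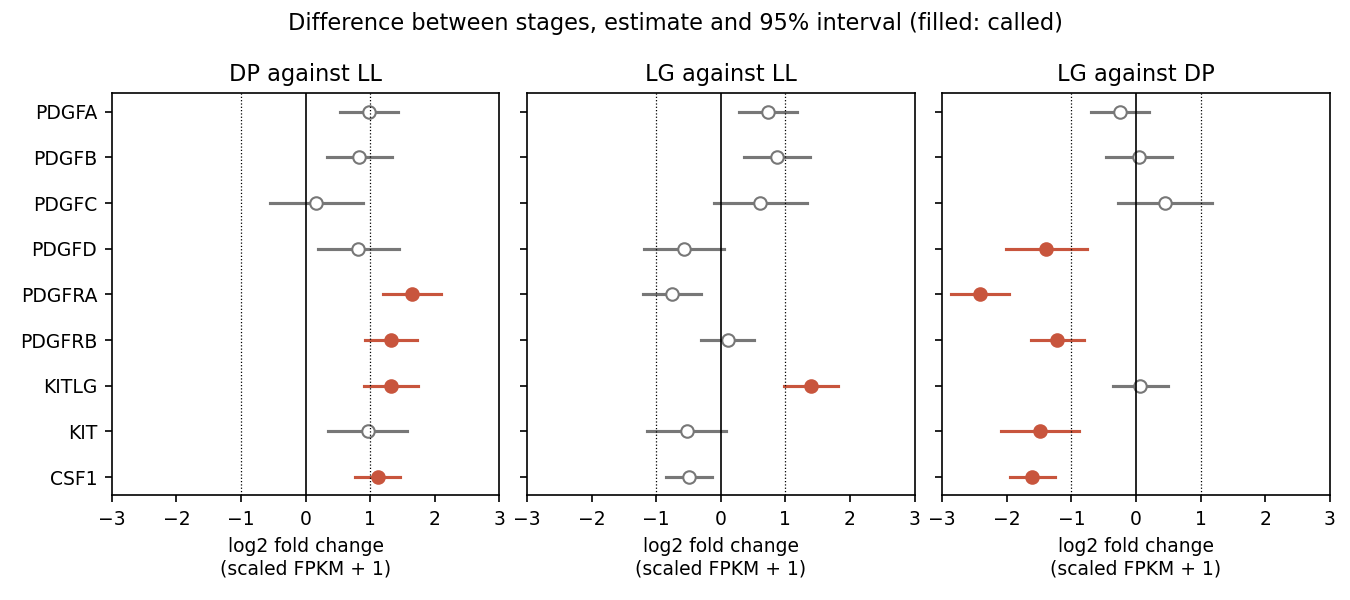
Log2 fold change (horizontal axes, scaled FPKM + 1) of the 9 genes in the 3 comparisons, with 95% intervals from limma; filled points are called and dotted lines mark a log2 fold change of 1 in size. In LG against DP, 5 genes lie at -1.22 or lower and the other 4 between -0.25 and 0.45.

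The shares of the 4 ligand genes in their sum were compared within libraries, where no scaling is needed, unlike for the sum itself. The summed FPKM as deposited was 13.1, 14.8 and 16.3 in late lactation, 50.5, 59.0 and 75.0 in the dry period and 31.5, 41.9 and 72.7 in late gestation. After scaling the sum was 26.3 to 26.8 in LL, with 33.1 to 52.1 in DP and 26.3 to 55.3 in LG, so that LG overlapped both other stages. PDGFC made up 57.9%, 45.8% and 47.3% of this sum in late lactation, 36.8%, 40.6% and 32.2% in the dry period and 51.6%, 50.8% and 69.9% in late gestation. Its share was lower in every DP library than in any other library. PDGFD made up 20.6%, 37.0% and 35.9% in late lactation, 30.3%, 39.4% and 39.2% in the dry period and 16.2%, 14.4% and 11.4% in late gestation. Its share in LG was below that of all other libraries. Over the 3 stages the shares differed for PDGFD (two-sided exact permutation test of the F statistic, p = 0.0179, adjusted over 8 ratios and shares 0.0357) and for PDGFC (p = 0.0286, adjusted 0.0457). These 2 calls are weak, because the adjusted p was above 0.05 in 8 of the 9 repeats that left out 1 library, for PDGFD (the exception being DP1) as for PDGFC (the exception being LL1). PDGFA (9.27% ± 0.961 in LL, then 14.2% ± 2.16 in DP and 14.0% ± 5.83 in LG, SD, n = 3, exact permutation p = 0.257) and PDGFB (9.23% ± 1.75, 13.0% ± 5.2 and 14.6% ± 2.94, n = 3, exact permutation p = 0.261) gave no such difference.

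**Figure D4:**
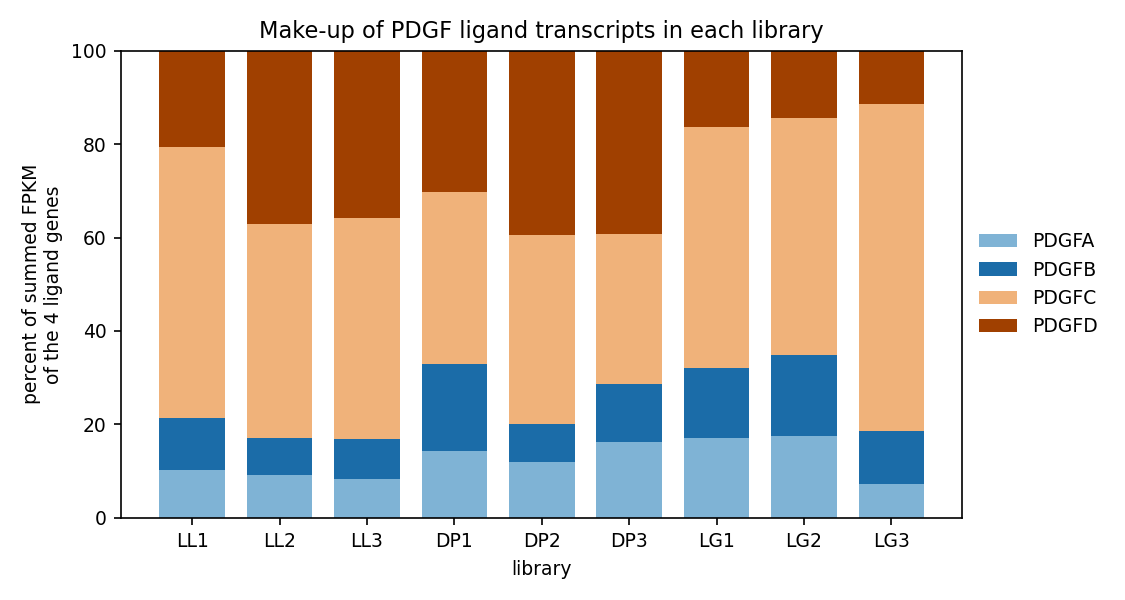
Percent of the summed FPKM of PDGFA, PDGFB, PDGFC and PDGFD (vertical axis, stacked to 100) in each of the 9 libraries (horizontal axis). PDGFD takes 11.4% to 16.2% in LG against 20.6% to 39.4% in LL and DP, and PDGFC takes 50.8% to 69.9% in LG.

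Among the receptors, PDGFRA (gene ID 102174007, chromosome 6, 70285928 to 70334333, plus strand), which binds the A, B and C chains and marks many fibroblasts, had the log2 fold changes of largest size among the 9 genes in DP against LL and in LG against DP. That order holds with 1 added to the scaled FPKM. Without it, the fold of scaled means in DP against LL was 5.28 for KITLG and 3.39 for PDGFRA. The KITLG fold rests on LL values under 0.5 FPKM as deposited. PDGFRA had 3.58, 3.48 and 6.27 FPKM in late lactation, 35.4, 35.1 and 48.0 in the dry period and 5.26, 5.77 and 4.66 in late gestation. All DP libraries lay above all others, with the ranges of LL and LG overlapping as deposited. PDGFRA rose in DP against LL (log2 fold change 1.65, SE 0.20, adjusted p = 0.000127) and fell in LG against DP (-2.41, SE 0.20, adjusted p = 6.58e-05). In LG against LL its log2 fold change was -0.76 (SE 0.20, adjusted p = 0.0109), which missed the fold change required and turned to 0.23 without scaling. Left-out libraries kept the first of these between 1.49 and 1.84 and the second between -2.51 and -2.25.

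PDGFRB (gene ID 102184426, chromosome 7, 48915000 to 48952725, plus strand) encodes the receptor of the B and D chains and is the receptor of pericytes and vascular smooth muscle. Its FPKM was 3.31, 3.04 and 4.72 in late lactation, 23.0, 24.4 and 32.8 in the dry period and 7.31, 9.40 and 10.4 in late gestation. The 3 stages did not overlap as deposited, and after scaling LL and LG did. PDGFRB rose in DP against LL (log2 fold change 1.32, SE 0.18, adjusted p = 0.000279) and fell in LG against DP (-1.22, SE 0.18, adjusted p = 0.000996). Between LG and LL its log2 fold change was 0.11 (SE 0.18, adjusted p = 0.652, 95% interval -0.30 to 0.51).

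The balance of the receptor transcripts differed between the stages. The ratio of PDGFRB to PDGFRA FPKM was 0.925, 0.874 and 0.753 in late lactation, 0.650, 0.695 and 0.683 in the dry period and 1.39, 1.63 and 2.23 in late gestation. PDGFRA was thus the more abundant in every LL and DP library and PDGFRB in every LG library. The stages did not overlap and differed by the two-sided exact permutation test (p = 0.00357, the smallest that 1680 assignments of the libraries allow, adjusted 0.0143). With 1 library left out in turn, p was at most 0.00714.

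**Figure D5:**
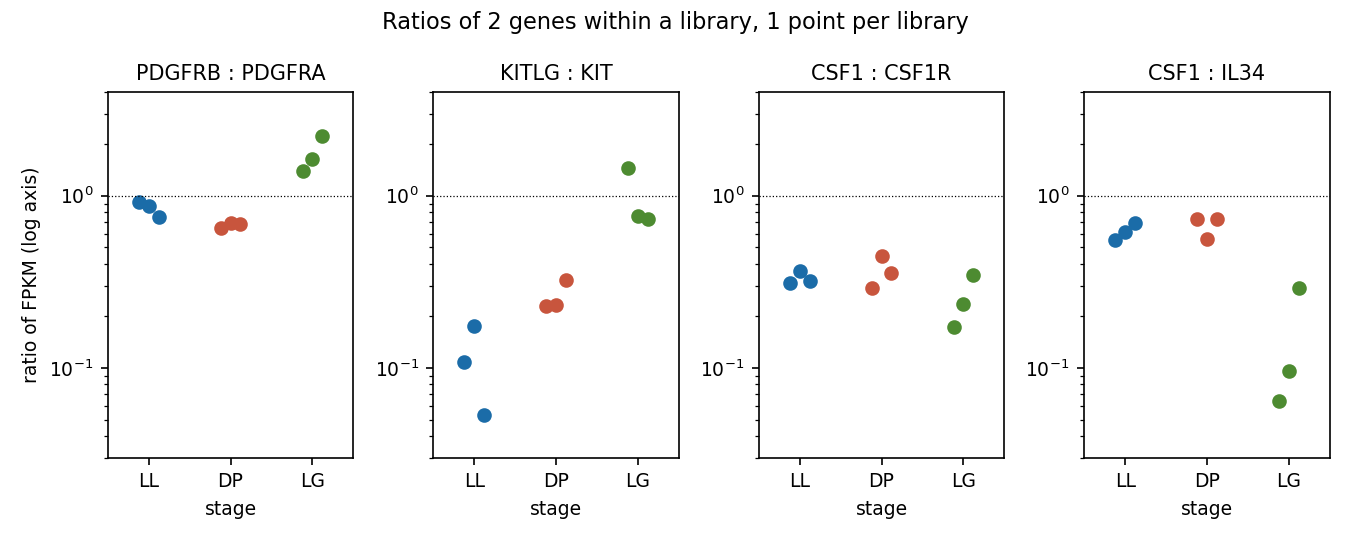
Ratio of the FPKM of 2 genes within a library (vertical axis, log scale) for PDGFRB to PDGFRA, KITLG to KIT, CSF1 to CSF1R and CSF1 to IL34, 1 point per library in LL, DP and LG, with a dotted line at 1. PDGFRB exceeds PDGFRA in LG alone (1.39 to 2.23), and KITLG to KIT goes from 0.0529 to 0.175 in LL to 0.732 to 1.45 in LG.

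KITLG and KIT, the ligand and the receptor of 1 system, had different profiles. KITLG (gene ID 100860807, chromosome 5, 18044632 to 18151924, minus strand) had 0.17, 0.48 and 0.27 FPKM in late lactation, 4.38, 3.01 and 5.44 in the dry period and 4.34, 3.42 and 3.66 in late gestation. Every LL library was below every other, and DP and LG overlapped. All LL values of KITLG lay under the 0.5 FPKM of the filter, so its comparisons with LL rest on values near the floor. KITLG rose in DP against LL (log2 fold change 1.33, SE 0.19, adjusted p = 0.000323) and in LG against LL (1.40, SE 0.19, adjusted p = 0.000318). In LG against DP the value was 0.07 (SE 0.19, adjusted p = 0.801), with a 95% interval of -0.35 to 0.49 and the sign turning without scaling (-0.11). Both calls of KITLG against LL stood without scaling and with scaling by the sum without the most abundant genes. They were lost with quantile normalization, where the changes against LL were 0.81 and 0.98 and neither was called.

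KIT (gene ID 100861386, chromosome 6, 70711232 to 70793908, plus strand) is the next gene listed after PDGFRA on chromosome 6. It had 1.57, 2.75 and 5.1 FPKM in late lactation, 19.1, 13.0 and 16.8 in the dry period and 2.99, 4.49 and 5.0 in late gestation. All DP libraries were above all others, and LL, in which the 3 goats spread widely, overlapped LG. After scaling, DP2 (9.03 scaled FPKM) lay only just above LL3 (8.42). KIT fell in LG against DP (log2 fold change -1.49, SE 0.27, adjusted p = 0.00274). In DP against LL its log2 fold change of 0.96 (SE 0.27, adjusted p = 0.0139) was just under the fold change required, and it was 1.26 and called without LL3. Against LL it was -0.53 in LG (SE 0.27, adjusted p = 0.132), turning to 0.39 without scaling.

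The ratio of KITLG to KIT was 0.108, 0.175 and 0.0529 in late lactation, 0.229, 0.231 and 0.325 in the dry period and 1.45, 0.762 and 0.732 in late gestation. The 3 stages did not overlap, and the ratio was lowest in LL and highest in LG (two-sided exact permutation test, p = 0.00357, adjusted 0.0143, at most 0.00714 with 1 library left out). KITLG reached the level of its receptor in 1 library, LG1. In LL the ratio rests on KITLG values under 0.5 FPKM.

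CSF1 (gene ID 102185051, chromosome 3, 87063962 to 87084717, plus strand) had 1.95, 1.92 and 2.2 FPKM in late lactation, 15.1, 12.2 and 13.0 in the dry period and 1.95, 2.98 and 4.04 in late gestation. All DP libraries lay above all others by a wide margin. CSF1 rose in DP against LL (log2 fold change 1.11, SE 0.16, adjusted p = 0.000323) and fell in LG against DP (-1.60, SE 0.16, adjusted p = 0.000134). The difference between LG and LL was -0.49 (SE 0.16, adjusted p = 0.0256), under the fold change required and turning to 0.37 without scaling. Its adjusted p was 0.0508 to 0.0767 without LG1, LG2 or any 1 LL library.

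CSF1R, the receptor, and IL34, its other ligand, are not among the 9 genes and are given for comparison. CSF1R had 6.25, 5.23 and 6.87 FPKM in late lactation, 51.7, 27.2 and 36.7 in the dry period and 11.3, 12.6 and 11.7 in late gestation. Its span overlaps that of HMGXB3 on the other strand (1.95 to 2.49 FPKM in LL, 7.57 to 9.24 in DP, 5.24 to 8.82 in LG), and reads of both could not be told apart there. CSF1R rose in DP against LL (log2 fold change 1.13, adjusted p = 0.00127) and fell in LG against DP (-1.33, adjusted p = 0.0010), as CSF1 did. CSF1R is the next listed gene after PDGFRB, but a straight line between their values left a residual of 43.0% of the range of CSF1R, so neither simply followed the other. The ratio of CSF1 to CSF1R was 0.333 ± 0.0297 in late lactation, 0.364 ± 0.0779 in the dry period and 0.251 ± 0.0872 in late gestation (SD, n = 3), a difference that the exact permutation test did not call (p = 0.161).

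IL34 had 3.54, 3.11 and 3.18 FPKM in late lactation, 20.5, 21.8 and 17.7 in the dry period and 30.5, 31.2 and 13.8 in late gestation, so the ligands of CSF1R parted in late gestation. It rose against LL in both DP (log2 fold change 1.07, adjusted p = 0.0117) and LG (1.53, adjusted p = 0.00226). The ratio of CSF1 to IL34 was 0.551, 0.617 and 0.692 in late lactation, 0.736, 0.557 and 0.732 in the dry period and 0.0640, 0.0955 and 0.292 in late gestation. Every LG library was below every other (exact permutation p = 0.0179, adjusted 0.0357). This call was lost when any LL or DP library was left out (adjusted p of 0.0857 to 0.121).

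Genes that act beside the 9 were described with a list of 76, of which 74 were tested. In DP against LL 14 rose and 7 fell, in LG against LL 10 rose and 6 fell, and in LG against DP 8 rose and 12 fell, with list medians of 0.25, 0.04 and -0.10 beside 0.00, 0.02 and 0.01 over all genes. Among 10 genes that cut, release or bind the ligands, 3 rose in DP against LL and fell in LG against DP. They were PLAT, LRP1 and MMP14, while ST14 did the reverse and MMP9 fell in LG against both other stages. PLAT encodes the tissue plasminogen activator, a protease that activates PDGF-C, and had 3.35, 5.47 and 2.93 FPKM in late lactation, 22.4, 25.4 and 34.5 in the dry period and 4.70, 6.06 and 7.20 in late gestation (log2 fold changes 1.30 in DP against LL and -1.76 in LG against DP). LRP1, an endocytic receptor that binds PDGFRB, gave 1.71 and -1.73. The values of MMP14 followed those of its neighbour MRPL52 and are no separate measurement. PLAU, which encodes the urokinase that can activate PDGF-D, gave 0.72 and -0.76, and FURIN, which cuts the A and B chains, 0.49 and -0.78, and neither was called.

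Of the 10 relatives of the receptors and ligands, 9 were tested. In DP against LL, CSF1R, IL34, FLT3LG and PDGFRL rose and CSF2RB fell. FLT3LG, the ligand of another receptor of the family, had 0.72, 0.07 and 0 FPKM in LL, with 4.41 to 5.81 in DP and 6.02 to 6.95 in LG, with log2 fold changes of 1.66 and 2.17 against LL. CSF2RB, the common beta chain of the receptors for CSF2, IL3 and IL5, went the other way, with 90.1 to 95.3 FPKM in late lactation, 11.9 to 14.5 in the dry period and 17.5 to 22.4 in late gestation (log2 fold change -4.05 in DP against LL). PDGFRL, a soluble relative of the receptors, rose and fell with PDGFRA (1.37 and -1.99), but its values followed those of the neighbouring LOC106503673.

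The 47 adaptors and enzymes below the receptors gave no common direction, with 5 higher and 5 lower of 46 tested in DP against LL, 6 higher and 2 lower in LG against LL, and 6 higher and 4 lower in LG against DP. The catalytic subunits of phosphoinositide 3-kinase and the kinases AKT1 and AKT2 were higher in LG than in DP, where the receptor genes were lower. PIK3CD had 5.44 to 7.86 FPKM in late lactation, 3.42 to 12.1 in the dry period and 112 to 124 in late gestation (log2 fold change 4.28 in LG against DP), AKT2 gave 3.74, PIK3CA 2.26, PIK3CB 1.83 and AKT1 1.52 in the same comparison. AKT2 was at 44.7 to 56.3 FPKM in LG and at 1.57 to 5.99 in the other 6 libraries, and the cause of these gaps was not tested. PIK3R1, a regulatory subunit that binds the activated receptors, was not called in any comparison (-0.03 for DP and 0.36 for LG, each against LL, and 0.39 for LG against DP). PIK3R2, another regulatory subunit, was called higher in DP (1.56) and in LG, each against LL. Its FPKM was 0.09 to 0.15 in LL, near the floor, 3.12 to 4.42 in DP and 3.51 to 4.66 in LG. CBLB and CBL, ubiquitin ligases that end receptor signals, rose in DP against LL by 2.13 and 1.59, and FYN, a kinase of the SRC family, by 1.21. Of 9 transcription factors, SPI1, the master factor of macrophages, rose in DP against LL (1.53), and MITF, which acts below KIT in mast cells and melanocytes, rose in DP against LL (1.03) and fell in LG against DP (-2.16).

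For each gene that was called at least once, the 3 genes with the most similar profile were taken. Likeness was the root mean square difference of log2 values, centred on their mean over the 9 libraries. Genes tied to a neighbour and genes named by a LOC number alone were left out. For PDGFRA these were XG (0.117), FAM102B (0.177) and MGP (0.177), and the profile of PDGFRA itself had a root mean square of 1.03. For PDGFRB they were RAB34 (0.10), HOMER3 (0.134) and ARPIN (0.135), against 0.630 for PDGFRB itself. The list for PDGFD was SLC7A2 (0.169), TEAD4 (0.182) and TACC1 (0.202), and that for KIT was SPIDR (0.193), FAM110D (0.215) and SLC7A2 (0.251), so that SLC7A2, a transporter of basic amino acids, stood in both. KITLG was closest to MYCT1 (0.0900), ZC3H12C (0.157) and C9H6orf203 (0.158), and CSF1 to PLEKHO1 (0.143), STAT6 (0.151) and TNFRSF1B (0.170). No member of the 9 was among the 3 closest genes of another.

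Markers of the cell types that carry these receptors moved with several of them. Their sums are given in scaled FPKM, and a gene as a percentage of a sum needs no scaling. Of 9 fibroblast markers, 8 rose in DP against LL and 5 fell in LG against DP, and their sum was 244 to 370 in late lactation, 599 to 2754 in the dry period and 543 to 983 in late gestation. The top of the DP range was DP3, where COL1A1, the main fibrillar collagen, was at 475 FPKM as deposited against 54.5 and 127 in the other DP libraries. Without DP3, PDGFRA, PDGFRB, KITLG and CSF1 remained the 4 called in DP against LL. PDGFRA amounted to 2.73% ± 0.248 of the marker sum in late lactation, 2.49% ± 1.33 in the dry period and 0.60% ± 0.182 in late gestation (SD, n = 3). PDGFRB was 2.10% to 2.72% of the same sum in LL, with 0.827% to 2.51% in DP and 0.775% to 1.15% in LG. On this measure DP overlapped LL for both receptors. The part of the fibroblast markers in the PDGFRA, PDGFRB and PDGFD results was not tested.

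Of 10 pericyte and smooth muscle markers, 3 rose in DP against LL (NOTCH3, ABCC9 and KCNJ8) and 3 fell in LG against DP (KCNJ8, CSPG4 and DES), with sums of 174 to 227 in late lactation, 163 to 604 in the dry period and 145 to 206 in late gestation. RGS5, a widely used pericyte marker, gave 0.26 in DP against LL and -0.40 in LG against DP and was not called. PDGFRB was 2.42% to 3.90% of this sum in LL, with 3.77% to 9.25% in DP and 3.83% to 4.22% in LG, so that the stages overlapped. The part of these markers in the PDGFRB and PDGFD results was not tested. None of 7 endothelial markers was called in DP against LL, and 2 fell in LG against DP, with sums of 119 to 147 in late lactation, 142 to 219 in the dry period and 69.5 to 97.7 in late gestation. PDGFRB per endothelial marker sum was 5.15% ± 0.480 in late lactation, 10.6% ± 0.248 in the dry period and 8.27% ± 0.497 in late gestation, and the stages did not overlap on that measure. PDGFB per endothelial marker sum was 1.93% ± 0.467, 3.13% ± 1.08 and 6.10% ± 0.463, highest in every LG library. PECAM1, the values of which are tied to a neighbour, is part of that sum, and without it PDGFRB was at 11.5% ± 1.87, 18.9% ± 3.03 and 14.4% ± 0.836 and PDGFB at 4.31% ± 1.16, 5.47% ± 1.70 and 10.6% ± 1.14, in the same order of stages. The part of the endothelial markers was not tested.

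Of 10 macrophage markers, CSF1R among them, 9 were tested, 5 rose in DP against LL and 8 fell in LG against DP, with sums of 90.9 to 122 in late lactation, 222 to 284 in the dry period and 97.6 to 111 in late gestation. CSF1 was 3.62% ± 0.356 of that sum in late lactation, 3.72% ± 0.508 in the dry period and 2.32% ± 0.845 in late gestation, and every LG library lay below the others, LG3 narrowly. The part of macrophage markers in the CSF1 result was not tested. Of 7 mast cell markers 4 were tested and none was called in any comparison, with sums of 8.98 to 9.69 in late lactation, 5.38 to 9.78 in the dry period and 3.57 to 4.62 in late gestation. In DP against LL, FCER1A gave 0.31, CPA3 -0.35, HPGDS -0.47 and GATA2 -0.54. In LG against DP they gave -0.79, -0.42, -0.10 and -0.21 in the same order. HDC and MS4A2 were too low to be tested. As deposited each was higher in every DP library (0.43 to 1.05 and 0.27 to 0.48 FPKM) than in any other. On that scale 84% of all genes tested were higher in every DP library than in any LL library. The share lower in every LG library than in any DP library was 34.2%. After scaling, HDC and MS4A2 each overlapped between DP and LL. The part of mast cell markers in the KIT result was not tested. Of 4 markers of interstitial cells of Cajal and melanocytes, which also carry KIT, ANO1 alone was tested, and it rose in DP against LL (1.00). The sums of these 4 were 4.63 to 6.85 in LL, followed by 11.6 to 12.9 in DP and 6.11 to 8.29 in LG. Most of each sum was ANO1, since DCT, PMEL and TYR were each at no more than 0.62 FPKM as deposited. As deposited, TYR was lower in every DP library than in any other, and PMEL was higher in every DP library than in any LL library. On that scale 84% of all genes tested were higher in every DP library than in any LL library, and 3.88% lower. In every LG library 15.5% were higher than in any DP library. After scaling, PMEL overlapped between DP and LL.

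Of 7 luminal epithelial markers, ELF5 and PRLR fell in DP against LL and rose in LG against DP, with sums of 862 to 1158 in late lactation, 292 to 546 in the dry period and 797 to 985 in late gestation. In DP against LL 5 of the 7 were lower, while KRT8 (0.28) and KRT18 (0.60) were higher and not called. In LG against DP 5 were higher, with KRT8 at -0.33 and KRT18 at -0.89, not called. KIT was 0.567% ± 0.362 of the luminal sum in late lactation, 3.09% ± 1.33 in the dry period and 0.379% ± 0.0819 in late gestation. As deposited, ELF5 held 266 to 374 FPKM of a luminal sum of 522 to 640 in LL. It held 37.6 to 63.7 of 447 to 787 in DP, so the percentage of KIT also moved with ELF5. Of 5 basal epithelial markers 4 were tested, 1 rose in DP against LL and 2 in LG against LL, with sums of 108 to 144 in LL, followed by 86.5 to 399 in DP and 152 to 217 in LG. Of 4 adipocyte markers 2 were tested and none was called, with sums reaching 3.72 in LL, 20.4 in DP and 1.69 in LG. Platelet markers, of cells that store PDGF, were low, with sums of at most 6.60 in late lactation, 6.53 in DP and 6.21 in LG. PF4 is not listed, GP9 was at 0 in every library and PPBP at no more than 0.19 FPKM, and neither of the 2 platelet markers tested was called. The part of epithelial and fat cell markers in the results was not tested.

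Values of neighbouring genes in the deposited table can be tied to each other. Among its genes, 1454 follow a neighbour to within 1% of their range over the 9 libraries. Each of the 9 genes was compared with up to 8 neighbours on either side, 100 pairs in all, and none was tied, the closest pair leaving a residual of 15.9%. CSF1R, compared in the same way, was not tied either, its closest pair (with CD74) leaving 21.6%. Of the markers, CSN1S1 (milk protein), PECAM1 (endothelial), KRT5 and KRT14 (basal) and ITGA2B (platelet) are tied to a neighbour, so that the sums of these lists hold tied values.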

How the data were processed

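Mammary tissue of 9 goats was taken at slaughter, RNA libraries were made with the TruSeq RNA kit v2, which does not keep strand, and sequenced on a HiSeq instrument. Per the labels and the study's methods, reads were trimmed with Trimmomatic and aligned with HISAT2. The submitters' processing notes name HTSeq as a further tool, whereas the methods name StringTie for quantification. The authors deposited 1 table with 1 value per gene and library. Its unit is not named, and the deposited values were taken as FPKM because they carry decimals and have unequal sums. The genome build is not named in the table, whose coordinates equal those of the RefSeq ARS1.2 gene table for 23465 of 23499 genes and for all 9 genes described. FPKM carry no read counts, so depth and counting error are unknown for these values and no count test was run.

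The values were divided by median-ratio factors from 15905 genes above 0 in all libraries. The test was limma 3.58.1 under R 4.3.3, on the 14701 genes that reached 0.5 FPKM in 3 or more libraries (log2 of scaled FPKM + 1, eBayes with a mean-variance trend, 9 libraries, no covariates), with Benjamini-Hochberg adjustment over all genes tested. Ratios and shares were tested with two-sided exact permutation tests of the F statistic in Python 3.11.15 with numpy 2.4.6, and adjusted over the 8 ratios and shares. An exact test of 3 libraries against 3 cannot give a p below 0.1 and was not used. The scripts were tested on simulated data. Groups and replicate numbers came from the sample titles and stage labels. The libraries come from different goats, and deviations of same-numbered libraries correlated at -0.106 to 0.201, over 0.1 in 3 of 9 pairs, so the numbers were not taken to pair them.

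The 9 genes, the 76 pathway genes, the 11 lists of cell type markers and the tests were chosen with earlier results of these data known. All 9 genes are named whatever their result. Of the pathway genes, those called at least once and CSF1R, IL34, PLAT, PLAU, FURIN, PIK3R1 and AKT1 may be named. Of the markers, each list is given by its counts and summed scaled FPKM, and the other markers named were chosen after their values were seen. Profiles were compared with those of all genes tested, leaving out genes tied to a neighbour and genes named by a LOC number alone. Alternatives covered scaling (none, quantile, or by the sum without the top 10 genes), pseudocount, filter, libraries in the fit, trend, a replicate block, the fold threshold, linked genes, and each library left out. Scaling by the sum without the top genes, the fit without linked genes and a second form of the link were added after the data were seen.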

Additional observations from a re-analysis of the deposited data

How the results depend on the processing

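One limit is the scaling between libraries, since the 10 most abundant genes fill most of the sum of an LL library. Percentages in brackets are the share of all genes tested that each setting called. Of the 9 genes, 4 were called in DP against LL (22.6%), and 9 without scaling (56.8%), 8 with scaling by the sum without the top 10 genes (32.6%), 7 with a pseudocount of 0.1 (30.5%) and 8 by adjusted p alone (56.9%). In LG against LL 1 was called (17.3%), and 5 without scaling (47.9%), 0 with quantile normalization (13.2%, limma, where 5 of the 9 had an unadjusted p under 0.05), 2 with scaling by the sum without the top genes (17.7%), 2 with a pseudocount of 0.1 (26.6%) and 5 by adjusted p alone (50.2%). The count of 5 in LG against DP stood under every alternative run. Leaving out 1 library gave 4 to 7, 1 to 2 and 5 to 5 calls, with 7 in DP against LL without DP2 (PDGFA, PDGFB and KIT added) and 2 in LG against LL without LG1 (PDGFB added). Of the pathway genes, 21 were called in DP against LL, and 52 without scaling and 32 with scaling by the sum without the top genes; in LG against LL 16, and 44 without scaling.

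Without scaling, the LG against LL values turned to 0.43 for PDGFD, 0.23 for PDGFRA, 0.39 for KIT and 0.37 for CSF1, and the LG against DP values to -0.16 for PDGFB and -0.11 for KITLG, which with scaling by the sum without the top genes were -0.35 and -0.29. None of these was called under either setting. Leaving out 1 library, PDGFB in LG against DP ran from -0.21 to 0.21, KITLG from -0.0889 to 0.23, and PDGFRB in LG against LL from -0.0061 to 0.21. With 1 FPKM subtracted from each value, the PDGFC and PDGFD shares had p = 0.025 and 0.0393 (exact permutation test, adjusted 0.05 and 0.0612). Leaving out 1 library, the exact permutation p ran from 0.0107 to 0.0571 for the PDGFD share, where the order of LL and DP turned without LL1, from 0.0143 to 0.139 for the PDGFC share, from 0.0107 to 0.432 for the PDGFA share (lowest without LG3, then past the threshold), from 0.025 to 0.514 for CSF1 to CSF1R (likewise) and from 0.0179 to 0.0714 for CSF1 to IL34. The cause of these changes was not tested beyond the settings themselves. A block for the replicate number, as if same-numbered goats were paired, left the counts at 4, 1 and 5 and changed none of the 27 calls, with an adjusted p of 0.0174 for PDGFD in LG against LL (under the fold change required), and 4 of 9 libraries correlated best with their own number in both other stages. The filters, the trend, the fit of 2 stages and the fit without linked genes changed none of the 27 calls either, with an adjusted p for PDGFD in DP against LL of 0.0512 without the filter and 0.0529 in the fit of 2 stages.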
